A study of Mus musculus with 9 samples.

Results

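The 30 genes described here code for enzymes of cholesterol synthesis, for the proteins that control the transcription factor SREBP2, and for adjoining steps of isoprenoid synthesis and sterol handling. They were picked by gene name from a table of 52248 named entries. Each had a mean of at least 1 CPM (the reads of a gene scaled to the same total in each library) over the 9 libraries, so all 30 were among the 12396 genes tested. By role, 7 belong to the mevalonate steps, 3 to the squalene steps and 9 to the sterol steps, and these are called the 19 enzymes. A further 3 belong to the isoprenoid branch, 6 to SREBP2 control and 2 to sterol handling. The list does not hold every enzyme of the pathway.

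RNA was sequenced from basal-derived organoids, which are cultures grown in gel from basal epithelial cells of the mouse prostate. All cells came from male Mpc1 fl/fl mice of a mixed C57BL/6N and C57BL/6J background, so the floxed alleles were shared by every group, and Mpc1 codes for a subunit of the mitochondrial pyruvate carrier. UK5099 organoids (n = 3) were infected with a lentivirus that makes red fluorescent protein (RFP), and were given UK5099, an inhibitor of the carrier, at 10 µM for 1 week. Mpc1-KO organoids (n = 3) carried a lentivirus coding for Cre recombinase and RFP, and received vehicle. Vehicle organoids (n = 3) carried the RFP virus and received vehicle. By the study's methods, RFP-positive cells were isolated by flow sorting after 1 week of culture. Expression of Cre and loss of Mpc1 cannot be told apart in this design. The age of the floxed mice was not given in the sources used here. Whether the replicates of a group are separate cultures or animals is not in the labels, so p-values measure only the spread between these libraries, which may be technical.

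Depth was 16.5 M to 28.7 M reads per library, and 3 reads, taken as the floor of detection, corresponded to 0.104 to 0.182 CPM. Mpc1 itself stood at 0.522, 0.533 and 0.598 CPM in Mpc1-KO libraries 1 to 3, against 2.36, 2.41 and 2.38 CPM in vehicle libraries, and at 2.04, 2.47 and 2.30 CPM in UK5099 libraries. The Mpc1-KO libraries lay under all others, the direction their label gives, though Mpc1 transcript remained above the floor in them. The source of the remaining transcript was not tested. The 8 basal markers summed to 20046 to 22244 CPM in UK5099 libraries, 10103 to 10701 CPM in Mpc1-KO libraries and 9596 to 10164 CPM in vehicle libraries. Of the markers of other origins, 0 of 4 endothelial and 1 of 6 immune genes (Cd68) reached a mean of 1 CPM, and Cdh5, Emcn and Adgre1 were at 0 in all 9 libraries. Replicates were spread unevenly, with a median SD over all tested genes of 0.181 on the log2 scale in UK5099, 0.0608 in Mpc1-KO and 0.0876 in vehicle.

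Cholesterol is built from acetyl-CoA in the cytosol and the endoplasmic reticulum. The mevalonate steps give isoprenoid diphosphates, the squalene steps join and close them into lanosterol, and the sterol steps trim lanosterol to cholesterol. The genes of this pathway are known targets of SREBP2, a transcription factor made as a membrane-bound precursor. The escort protein SCAP carries the precursor to the Golgi when membrane cholesterol is low, and INSIG proteins hold SCAP back when cholesterol or oxysterols are plentiful. In the Golgi the site-1 and site-2 proteases release the active part, which enters the nucleus. Insig1 is itself a target, which closes a feedback loop. Cleavage of SREBP2 is a protein event that RNA levels do not measure.

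UK5099-treated organoids were compared with vehicle organoids to ask what treatment with the inhibitor changed. Inhibition of the carrier and any other action of UK5099 cannot be told apart in this comparison. Transcript of the cholesterol pathway was higher with UK5099 almost throughout. Of the 30 genes, 22 rose (limma, adjusted p below 0.05 over all tested genes), against a background of 19.9% of all tested genes called higher. None of the 30 fell by that test, by which 18.2% of tested genes were called lower and 38.1% in either direction. At an unadjusted p below 0.05, 0 of the 30 fell. Shares of all tested genes are at the adjusted threshold here and below, also where unadjusted counts are given. The 30 genes and the lists below were chosen with earlier results of these data known. Counts set beside these shares are therefore descriptions and not tests of a set. The median log2 fold change of the 30 genes was 0.65, beside 0.04 over all tested genes. Among the 19 enzymes, 18 rose, with a median of 0.76, and in these 18 every UK5099 library lay above every vehicle library and every Mpc1-KO library. The share of all tested genes set apart in this way was not counted, so that separation has no background beside it. The exception was Lbr.

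**Figure D1:**
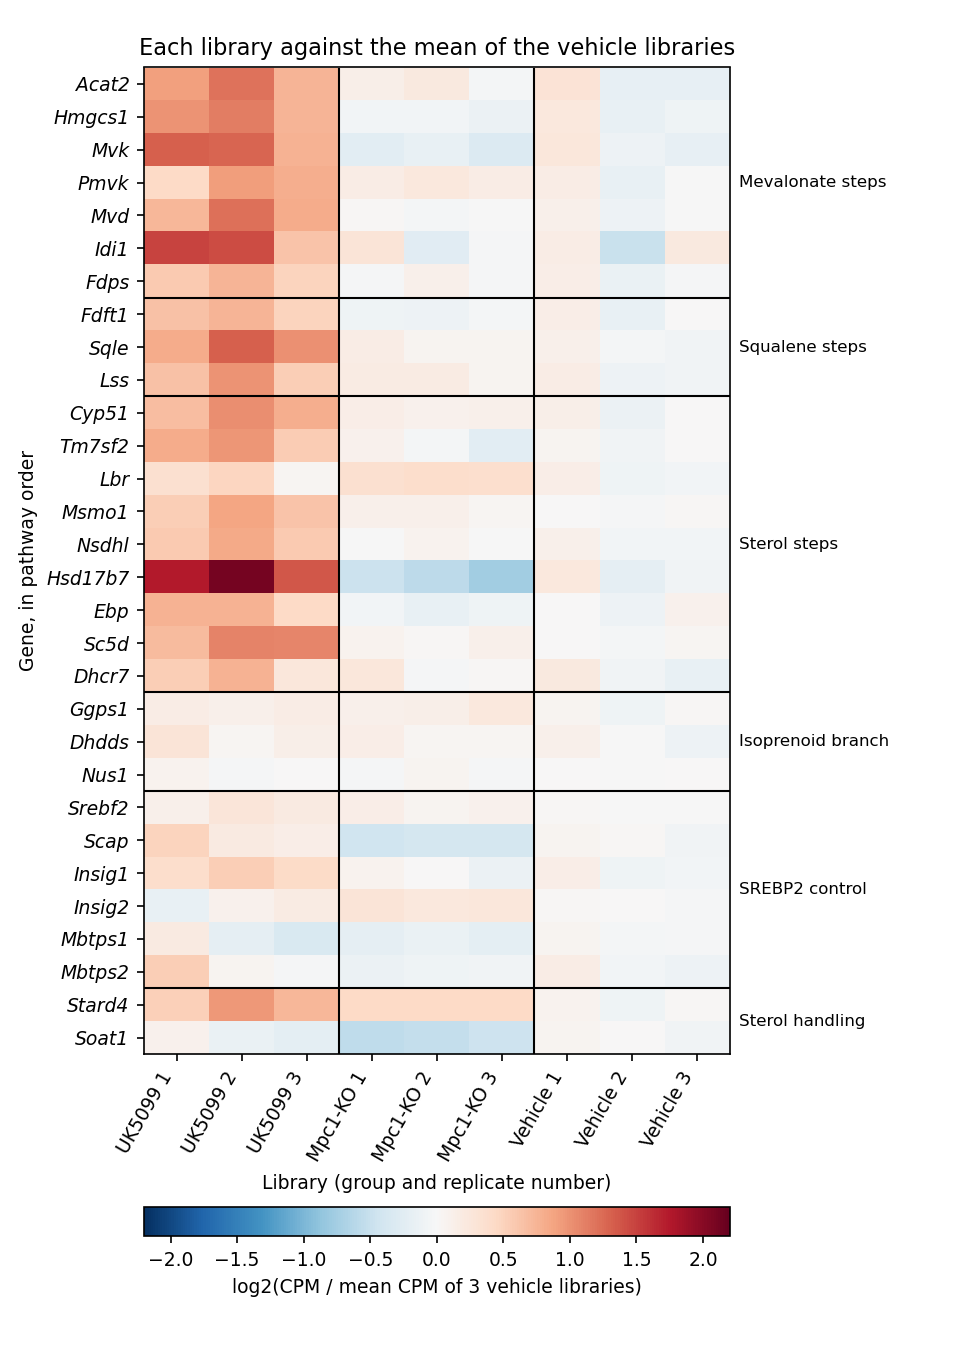
Colour gives log2 of CPM over the mean CPM of the 3 vehicle libraries, for the 30 genes in pathway order (rows) and the 9 libraries (columns, UK5099, Mpc1-KO and vehicle, replicates 1 to 3). Apart from Lbr, the enzyme rows are red in all 3 UK5099 columns, though pale for Dhcr7 in replicate 3. The enzyme rows are mostly pale in the Mpc1-KO columns, where Hsd17b7, Scap and Soat1 are blue and Stard4 and Lbr are light red.

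Summed over the 19 enzymes, transcript came to 2879.5, 3500.4 and 2846 CPM in UK5099 libraries 1 to 3, against 1862, 1574 and 1654 CPM in vehicle libraries. The UK5099 libraries all lay above the vehicle libraries. UK5099 library 2 was the highest of its group in 16 of the 19 enzymes and library 3 the lowest in 13, with medians over the enzymes of 0.70, 0.99 and 0.63 log2 units above the vehicle mean in libraries 1, 2 and 3. Among vehicle libraries, library 1 was the highest in 15 enzymes and library 2 the lowest in 15. Values are shares of a library's reads from whole organoids, so fewer cells of a type and less RNA per cell cannot be told apart.

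**Figure D2:**
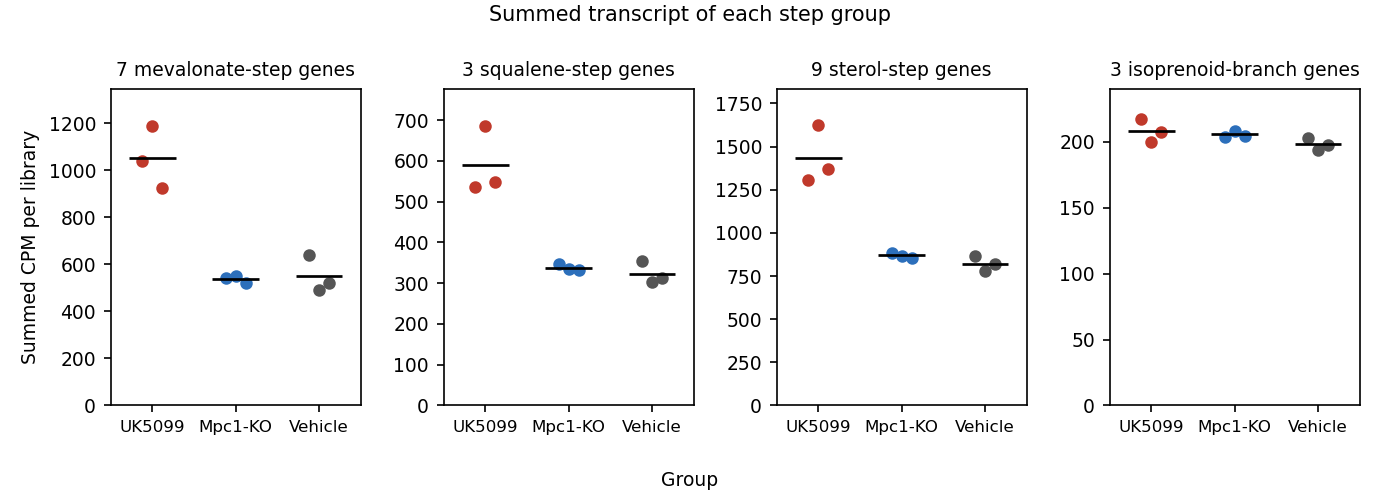
Each point is 1 library and gives the summed CPM (y axis, from 0) of the genes of a step group, by group (x axis), and the line is the mean of 3 libraries. UK5099 libraries lie above the others for the mevalonate, squalene and sterol steps, and the 3 groups lie close together for the isoprenoid branch (194 to 217 CPM).

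Levels per kilobase of exon gave an order within the pathway. In vehicle organoids the highest was Hmgcs1, the synthase of hydroxymethylglutaryl-CoA, at 85.2 CPM per kilobase. Srebf2, which codes for SREBP2, came second at 69.6 CPM per kilobase, followed by Cyp51 at 60.8. At the other end stood Soat1 at 2.16 and Idi1 at 0.585 CPM per kilobase. The lengths are exon unions of GENCODE M21, which may be longer than the transcripts these cells make.

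Promoters of the genes these results turn on are shown from RefSeq (GRCm38.p6), as the 250 bases before the gene start, 5′ to 3′ on the gene's strand. Capitals mark 3 short motifs searched on both strands. They are TCACNCCAC, the core of a sterol regulatory element, which SREBP2 binds, CCAAT, the box bound by NF-Y (reading ATTGG on the other strand), and GGGCGG, the GC box bound by Sp1 (CCGCCC on the other strand), and none of the 3 contains another. Hmgcs1 is shown as the most abundant enzyme, Mvk and Hsd17b7 for the largest changes of their steps, Lbr as the enzyme that did not pass, and Srebf2 and Insig1 as the factor and its feedback inhibitor.
Hmgcs1 (chr13:119690101-119690350, plus strand): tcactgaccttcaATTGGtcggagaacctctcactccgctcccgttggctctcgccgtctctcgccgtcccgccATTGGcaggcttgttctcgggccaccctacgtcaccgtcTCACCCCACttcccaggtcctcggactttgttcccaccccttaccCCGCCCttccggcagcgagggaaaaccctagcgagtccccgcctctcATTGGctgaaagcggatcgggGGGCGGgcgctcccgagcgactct
Mvk (chr5:114444019-114444268, plus strand): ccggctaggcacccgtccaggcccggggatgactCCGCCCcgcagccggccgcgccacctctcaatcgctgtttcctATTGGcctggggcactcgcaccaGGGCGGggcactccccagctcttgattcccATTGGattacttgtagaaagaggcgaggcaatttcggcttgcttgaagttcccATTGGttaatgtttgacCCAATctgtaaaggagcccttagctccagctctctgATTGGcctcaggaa
Hsd17b7 (chr1:169969206-169969455, minus strand): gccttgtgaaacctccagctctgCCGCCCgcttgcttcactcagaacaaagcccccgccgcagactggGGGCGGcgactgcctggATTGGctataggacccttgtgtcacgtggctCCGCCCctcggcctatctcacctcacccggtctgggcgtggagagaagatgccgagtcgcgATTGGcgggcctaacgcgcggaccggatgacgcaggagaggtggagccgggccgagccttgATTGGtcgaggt
Lbr (chr1:181842402-181842651, minus strand): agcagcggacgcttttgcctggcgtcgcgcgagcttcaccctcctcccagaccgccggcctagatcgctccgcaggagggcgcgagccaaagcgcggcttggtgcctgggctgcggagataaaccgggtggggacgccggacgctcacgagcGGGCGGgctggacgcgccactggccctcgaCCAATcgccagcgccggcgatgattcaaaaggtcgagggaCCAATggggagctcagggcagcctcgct
Srebf2 (chr15:82147019-82147268, plus strand): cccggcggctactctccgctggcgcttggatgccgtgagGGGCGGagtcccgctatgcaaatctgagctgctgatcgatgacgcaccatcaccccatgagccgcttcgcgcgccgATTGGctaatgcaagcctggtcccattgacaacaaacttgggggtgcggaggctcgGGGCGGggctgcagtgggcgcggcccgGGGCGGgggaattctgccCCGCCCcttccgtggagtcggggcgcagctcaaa
Insig1 (chr5:28071162-28071411, plus strand): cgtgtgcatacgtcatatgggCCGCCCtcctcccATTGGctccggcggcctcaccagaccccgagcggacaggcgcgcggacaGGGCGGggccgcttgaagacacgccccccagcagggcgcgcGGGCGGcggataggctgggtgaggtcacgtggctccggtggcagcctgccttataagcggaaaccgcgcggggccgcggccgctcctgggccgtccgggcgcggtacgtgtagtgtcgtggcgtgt

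Promoters of 26 of the 30 genes matched by symbol, and those of Fdps, Fdft1, Sqle and Stard4 were not used here. The sterol element core was found in 1 of the 26, Hmgcs1, where its first base lay 137 bases before the start. That is 3.85% of these genes, beside 1.24% of the tested genes with a promoter in the table (9593 genes). A CCAAT box lay in 84.6% of the 26 and in 15 of the 16 enzymes with a promoter (93.8%), beside 40.8% of tested genes. GC boxes were found in 80.8% of the 26, beside 65.2% of tested genes. Lbr, which did not pass with UK5099, holds 2 CCAAT boxes and 1 GC box. Of genes that rose, Mvk holds 5 and 2, and Insig1 holds 1 and 3. Whether the number of matches goes with the change was not tested. A match is a run of letters, and binding of a factor was not measured. Only exact matches within the stretch described above were counted. The Srebf2 promoter holds a run that differs from the sterol element core at its last base alone, and it was not counted. A promoter without a match is thus not shown to lack a sterol element.

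**Figure D3:**
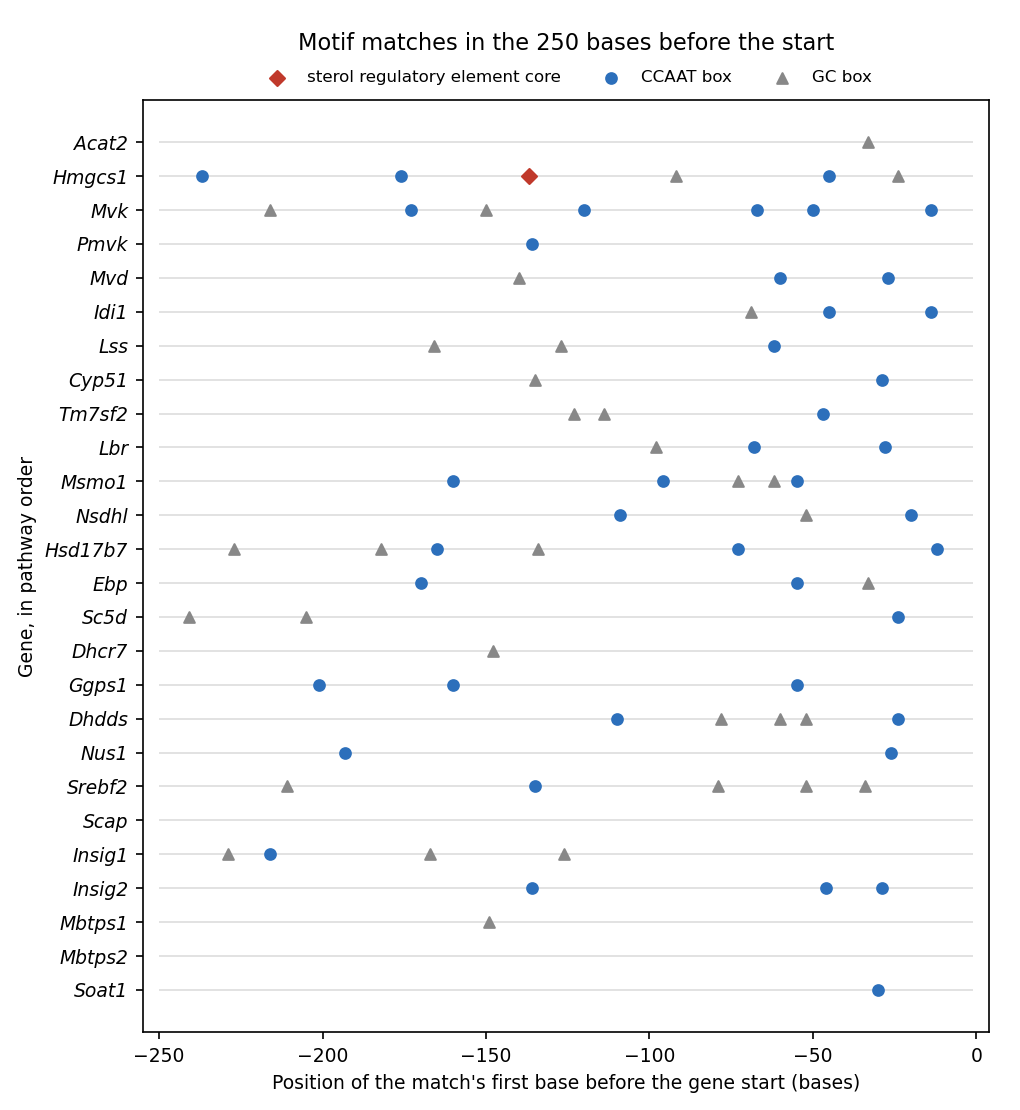
Each mark is a motif match, placed by its first base in bases before the gene start (x axis), for 26 genes in pathway order (y axis), using the first listed promoter where a gene has several. Diamonds are sterol element cores, circles CCAAT boxes and triangles GC boxes. The single diamond is in Hmgcs1, and CCAAT boxes are seen in most enzyme rows.

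All 7 genes of the mevalonate steps rose with UK5099, with log2 fold changes of 0.59 to 1.11 and a median of 0.95. Mvk, which codes for mevalonate kinase, changed most. It stood at 39.0, 38.5 and 26.7 CPM in UK5099 libraries 1 to 3, against 18.8, 14.5 and 13.9 CPM in vehicle libraries. All UK5099 values lay above all vehicle values, and the log2 fold change was 1.11 ± 0.16 (SE, limma adjusted p = 4.1e-04). Fdps, the synthase of farnesyl diphosphate, changed least of the 7, at 25.9, 29.3 and 24.4 CPM in UK5099 libraries and 19.4, 15.9 and 17.2 CPM in vehicle libraries. Its groups did not overlap either (0.59 ± 0.10, adjusted p = 0.0014).

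Acat2, the cytosolic thiolase of the first step, averaged 63.6 ± 9.99 CPM with UK5099 and 32.7 ± 6.53 CPM in vehicle (SD, n = 3 each), and its log2 fold change was 0.95. Hmgcs1, which makes the next intermediate, averaged 759 ± 97.9 CPM with UK5099 and 391 ± 59.3 CPM in vehicle (0.96). Both were higher in every UK5099 library than in any vehicle library. Pmvk (phosphomevalonate kinase) and Mvd (mevalonate diphosphate decarboxylase), the steps after Mvk, rose by 0.72 and 0.92. Idi1, which interconverts the isoprenoid diphosphates, which was also lowest per kilobase, stood at 4.80 ± 1.43 CPM with UK5099 and 2.051 ± 0.514 CPM in vehicle and rose by 1.04 ± 0.24. Some genes have near-identical copies, and the counting of reads that fit several copies was not stated, so levels of such genes are uncertain to that extent.

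The 3 genes of the squalene steps rose as well, with a median of 0.73. Sqle codes for squalene epoxidase, an oxygen-requiring control point of the pathway. Its values were 256, 361 and 294 CPM in UK5099 libraries 1 to 3, against 157, 142 and 139 CPM in vehicle libraries. The lowest UK5099 value was above the highest vehicle value, with a log2 fold change of 1.04 ± 0.11 (limma adjusted p = 5.5e-05). Fdft1, squalene synthase, which commits farnesyl diphosphate to sterols, stood at 139, 149 and 125 CPM in UK5099 libraries and at 98.5, 78.8 and 88.7 CPM in vehicle libraries. It changed least of the 3 (0.63 ± 0.09, adjusted p = 3.5e-04), without overlap. Lss, the lanosterol synthase that closes the rings, averaged 148 ± 24.7 CPM with UK5099 and 89.0 ± 9.34 CPM in vehicle (0.73).

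Of the 9 genes of the sterol steps, 8 rose, with a median over the 9 of 0.68 and a range of 0.29 to 1.73. Hsd17b7, the ketosteroid reductase of the demethylation of the sterol ring, changed most of all 30 genes. It stood at 79.7, 102 and 61.1 CPM in UK5099 libraries 1 to 3, against 27.9, 20.6 and 22.5 CPM in vehicle libraries. The groups were far apart, with a log2 fold change of 1.73 ± 0.18, a 3.32-fold difference (limma adjusted p = 4.9e-05). Its partners in demethylation changed less, Msmo1 (the oxidase) by 0.68 and Nsdhl (the decarboxylating dehydrogenase) by 0.67.

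Lbr and Tm7sf2 code for enzymes that reduce the same double bond of the sterol ring, and Lbr is also an anchor of chromatin at the nuclear envelope. Lbr stood at 47.8, 52.01 and 38.4 CPM in UK5099 libraries, against 41.5, 35.0 and 35.8 CPM in vehicle libraries. UK5099 library 3 lay under vehicle library 1, and Lbr did not pass (0.29 ± 0.11, interval 0.05 to 0.53, limma adjusted p = 0.061). It passed without UK5099 library 3 (0.41, adjusted p = 0.0044) and without vehicle library 1 (0.36, 0.038). Tm7sf2 averaged 24.6 ± 3.45 CPM with UK5099 and 14.2 ± 0.684 CPM in vehicle and rose by 0.76.

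Cyp51, the demethylase of lanosterol, averaged 480.1 ± 59.2 CPM with UK5099 and 269 ± 23.6 CPM in vehicle (0.83). Sc5d, a desaturase of the last steps, rose by 0.96 and Ebp, the isomerase before it, by 0.64. Both were above vehicle in all 3 UK5099 libraries. Dhcr7, a terminal reductase whose loss in humans causes Smith-Lemli-Opitz syndrome, showed the smallest rise that passed among the enzymes, at 43.7, 50.7 and 35.8 CPM in UK5099 libraries against 35.0, 28.3 and 26.7 CPM in vehicle libraries (0.52 ± 0.14, limma adjusted p = 0.015). Dhcr7 missed the threshold after removal of vehicle library 2 (0.49, adjusted p = 0.057), vehicle library 3 (0.44, 0.065) or UK5099 library 2 (0.40, 0.054). The other 17 enzyme calls held under every alternative in which the gene was tested.

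**Figure D4:**
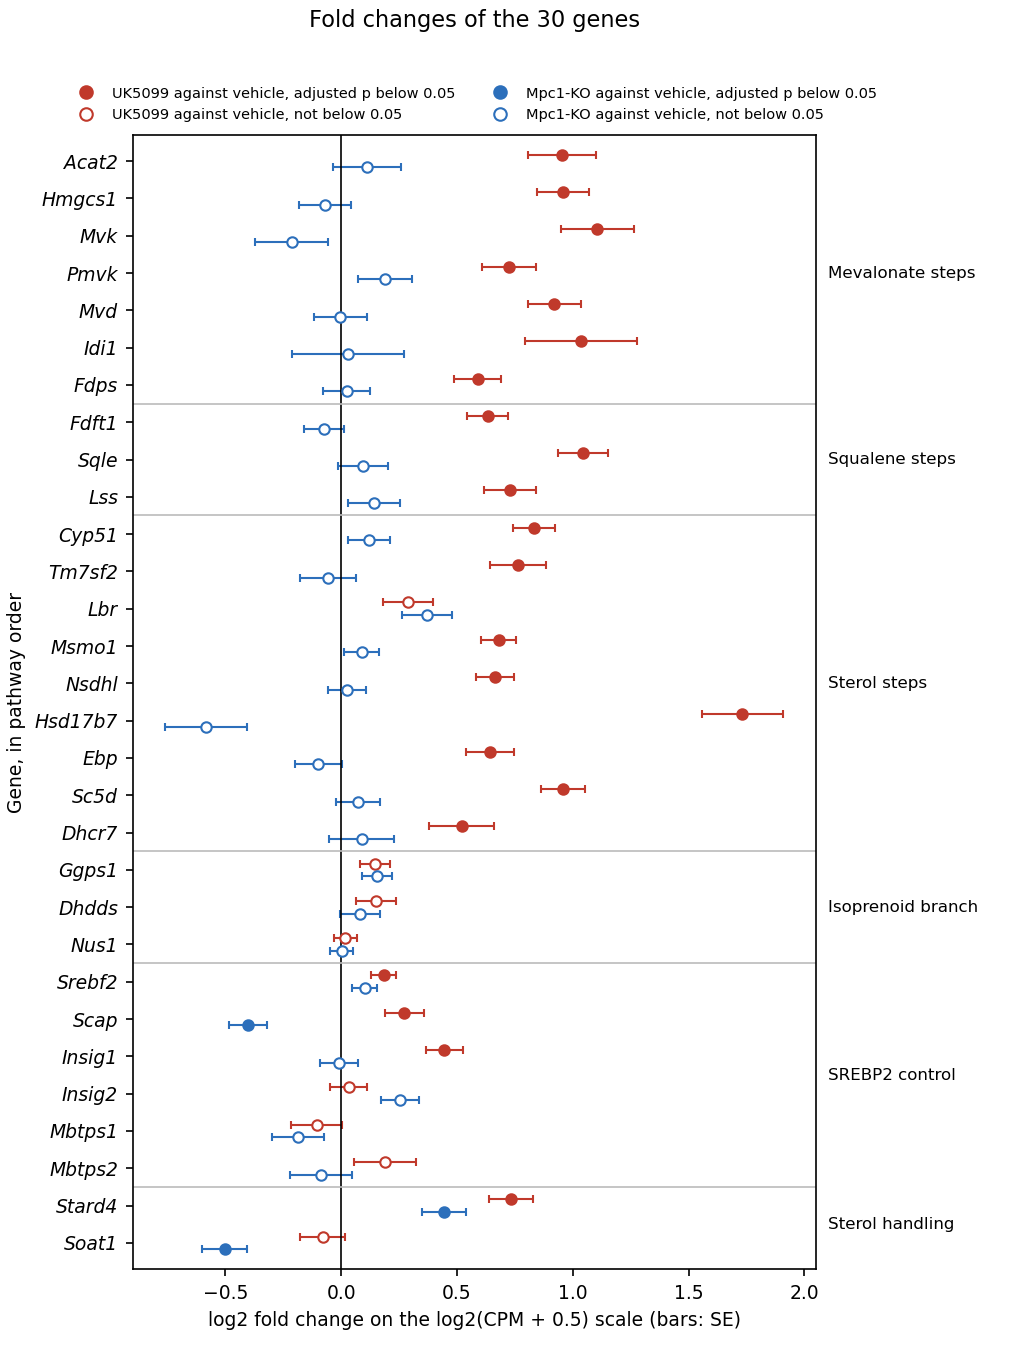
Points are log2 fold changes on the log2(CPM + 0.5) scale with their SE (x axis), for UK5099 against vehicle (red, upper) and Mpc1-KO against vehicle (blue, lower), with genes in pathway order on the y axis and filled points at a limma adjusted p below 0.05. Red points of 18 enzymes lie between 0.52 and 1.73, while the blue points of 17 enzymes lie between -0.21 and 0.19.

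The isoprenoid branch leaves the pathway at the diphosphates, and its 3 genes did not pass with UK5099 (0 of 3 by limma, 1 of 3 at an unadjusted p below 0.05). Dhdds and Nus1 code for the subunits of the enzyme that makes the dolichol chain used in protein glycosylation. Dhdds stood at 39.7, 33.4 and 35.4 CPM in UK5099 libraries against 35.3, 32.2 and 30.02 CPM in vehicle libraries. Nus1 stood at 128, 119 and 123 CPM in UK5099 libraries against 122, 121 and 123 CPM in vehicle libraries. Both overlapped between groups, with log2 fold changes of 0.15 (interval -0.04 to 0.34) and 0.02 (interval -0.09 to 0.13). Ggps1, which makes geranylgeranyl diphosphate for protein prenylation, had one of 0.15 (interval 0.003 to 0.291, adjusted p = 0.10). Its UK5099 libraries (47.1 to 49.3 CPM) lay above the vehicle libraries (41.1 to 45.5 CPM).

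Among the 6 control genes 3 rose, beside 19.9% of all tested genes called higher. The changes of these 3 were smaller than those of the 18 enzymes that rose. Insig1, the feedback inhibitor, stood at 74.6, 82.6 and 76.2 CPM in UK5099 libraries 1 to 3, against 63.0, 53.4 and 54.8 CPM in vehicle libraries. The groups did not overlap (log2 fold change 0.45 ± 0.08, limma adjusted p = 0.0018). Its paralogue Insig2, which is not known as a target of SREBP2, stood at 59.0, 70.2 and 74.8 CPM with UK5099, against 67.0, 66.8 and 64.6 CPM in vehicle. The UK5099 values were spread on both sides of the vehicle values (0.03, interval -0.15 to 0.21, adjusted p = 0.78). The sign of that difference turned with median-of-ratios rescaling (-0.0015).

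Srebf2, second of the 30 genes per kilobase, changed little. It stood at 537, 599 and 571 CPM in UK5099 libraries, against 509, 497 and 495 CPM in vehicle libraries. The groups did not overlap, and the log2 fold change of 0.18 ± 0.05 passed (limma adjusted p = 0.022). That call was lost after median-of-ratios or TMM rescaling (0.15, adjusted p of 0.16 and 0.13), without vehicle library 2 (0.074) or 3 (0.078) and without UK5099 library 2 (0.060). Scap, the escort, stood at 149, 122 and 118 CPM in UK5099 libraries against 111, 108 and 101 CPM in vehicle libraries, with UK5099 library 1 apart from the other two. It rose by 0.27 ± 0.08 (adjusted p = 0.027), and lost the call without vehicle library 2 (0.066) or 3 (0.11), where the difference was 0.28 and 0.24. Leaving out UK5099 library 1 gave 0.17 for Scap, which still passed (adjusted p = 0.020). Both calls were also lost in the fit of these 6 libraries alone (0.070 for Srebf2 and 0.076 for Scap) and with no filter (0.0504 and 0.053), and the Scap call with no trend (0.05).

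The proteases that release SREBP2 did not pass. Mbtps1 (site-1 protease) stood at 171, 130.2 and 119 CPM in UK5099 libraries, against 156, 145 and 146 CPM in vehicle libraries. Mbtps2 (site-2 protease) stood at 50.7, 36.5 and 34.3 CPM in UK5099 libraries, against 39.102, 33.6 and 32.4 CPM in vehicle libraries. For both genes UK5099 library 1 was the highest of all 9 libraries and the other UK5099 libraries overlapped with or lay under vehicle, with log2 fold changes of -0.11 (interval -0.35 to 0.14) and 0.19 (interval -0.11 to 0.49). Without UK5099 library 1, Mbtps1 passed as lower (-0.26, limma adjusted p = 0.0024).

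**Figure D5:**
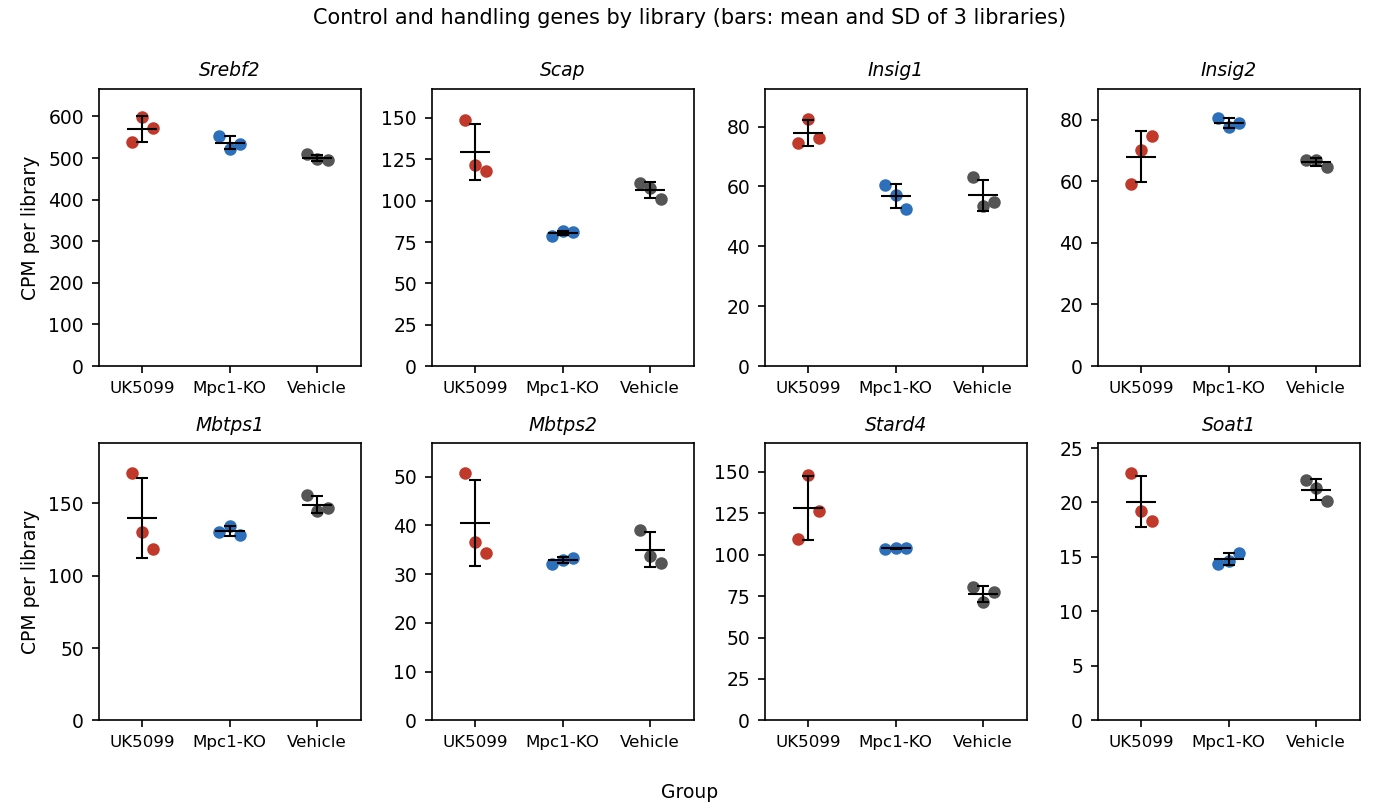
Points are CPM of 1 library each (y axis, from 0), by group (x axis), with bars for the mean and SD of 3 libraries. Insig1 and Stard4 lie highest with UK5099, Scap and Soat1 lie lowest in Mpc1-KO, and 1 UK5099 point (library 1) stands above its group for Scap, Mbtps1 and Mbtps2.

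The 2 genes of sterol handling parted. Stard4, a cytosolic sterol carrier known as a target of SREBP2, stood at 109.5, 148 and 126 CPM in UK5099 libraries against 80.3, 71.3 and 77.3 CPM in vehicle libraries. It rose without overlap (0.73 ± 0.10, limma adjusted p = 2.5e-04). Soat1, which esterifies cholesterol for storage, stood at 22.7, 19.3 and 18.3 CPM in UK5099 libraries against 22.1, 21.4 and 20.2 CPM in vehicle libraries. The groups overlapped and Soat1 did not pass (-0.08, interval -0.29 to 0.13, adjusted p = 0.54).

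Mpc1-KO organoids were compared with vehicle organoids to ask what deletion of the carrier changed, and both comparisons use the same 3 vehicle libraries. The enzymes did not follow the picture seen with UK5099. Of the 19, 0 passed by limma in Mpc1-KO against vehicle, with 1 higher and 1 lower at an unadjusted p below 0.05. Over all tested genes 10.7% were called, 5.64% higher and 5.03% lower. That share depends on the fit: 699 genes were higher and 624 lower with all 9 libraries, against 2164 and 2235 with only these 6. Counts given here are from the fit of all 9. Of the 30 genes, 1 rose (Stard4) and 2 fell (Scap and Soat1), with a median log2 fold change of 0.03, beside -0.01 over all tested genes. The summed transcript of the 19 enzymes was 1776, 1752 and 1707 CPM in Mpc1-KO libraries, within the range of the vehicle libraries (1574 to 1862 CPM).

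Apart from Lbr and Hsd17b7, the 17 other enzymes lay between -0.21 and 0.19, with the mevalonate steps at a median of 0.02, the squalene steps at 0.09 and the sterol steps at 0.07. Hmgcs1 averaged 370.1 ± 11.01 CPM in Mpc1-KO and 391 ± 59.3 CPM in vehicle (-0.07, interval -0.32 to 0.18). For Sqle, which averaged 156 ± 6.57 CPM in Mpc1-KO and 146 ± 9.73 CPM in vehicle, the difference was 0.09 (interval -0.15 to 0.33). A miss of the threshold does not show equal levels, and in 18 of the 19 enzymes the upper end of the interval stayed under the estimate for UK5099 against vehicle.

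Hsd17b7 and Lbr were the enzymes nearest to the threshold, in opposite directions. Hsd17b7 stood at 16.99, 15.9 and 13.9 CPM in Mpc1-KO libraries 1 to 3, against 27.9, 20.6 and 22.5 CPM in vehicle libraries. The groups did not overlap, and the log2 fold change of -0.58 ± 0.18 did not pass (limma adjusted p = 0.064). It passed in the fit of these 6 libraries alone (0.0030), and without UK5099 library 1 (0.024), 2 (0.034) or 3 (0.023), at the same fold change. Lbr stood at 48.0, 48.8 and 48.4 CPM in Mpc1-KO libraries, against 41.5, 35.0 and 35.8 CPM in vehicle libraries. It lay above vehicle in all 3 libraries (0.37 ± 0.11, adjusted p = 0.058). Lbr passed after median-of-ratios (0.039) or TMM (0.044) rescaling, in the 6 libraries alone (0.0016), and without UK5099 library 1 (0.018), 2 (0.040) or 3 (0.013).

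Scap was the control gene that fell. It stood at 78.8, 81.5 and 81.1 CPM in Mpc1-KO libraries 1 to 3, against 111, 108 and 101 CPM in vehicle libraries. All Mpc1-KO values lay under all vehicle values, with a log2 fold change of -0.40 ± 0.08 (limma adjusted p = 0.018). The fold change was -0.44 to -0.37 when any library was left out, but Scap no longer passed once vehicle library 1 (adjusted p = 0.064) or 2 (0.071), or Mpc1-KO library 1 (0.083), 2 (0.059) or 3 (0.073), was removed. In the 6 libraries alone Scap passed.

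Of the other control genes, Insig1 stood at 60.4, 57.1 and 52.5 CPM in Mpc1-KO libraries, overlapping the vehicle values (-0.01, interval -0.19 to 0.17). Insig2 stood at 80.7, 77.5 and 78.7 CPM in Mpc1-KO libraries, all above vehicle (0.25 ± 0.08, limma adjusted p = 0.073), and passed once UK5099 library 1 (0.0023) or 3 (0.035) was removed. Srebf2 stood at 554, 522 and 535 CPM in Mpc1-KO libraries, also above all vehicle values (0.10, interval -0.02 to 0.22, adjusted p = 0.26). The proteases did not pass, with Mbtps1 at 130.1, 134 and 128 CPM (-0.18, interval -0.43 to 0.06) and Mbtps2 at 32.1, 33.0 and 33.4 CPM (-0.09, interval -0.39 to 0.21). Without UK5099 library 1, Mbtps1 passed as lower (-0.18, adjusted p = 0.016). In the fit of the 6 libraries alone Insig2 (0.00082), Mbtps1 (0.0052) and Srebf2 (0.047) passed, at the same fold changes.

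Stard4 and Soat1 moved in opposite directions in Mpc1-KO. Stard4 stood at 103.7, 104 and 103.8 CPM in Mpc1-KO libraries, above the 80.3, 71.3 and 77.3 CPM of vehicle libraries (0.44 ± 0.10, limma adjusted p = 0.020). Stard4 missed the threshold after removal of vehicle library 2 (0.40, adjusted p = 0.086) or 3 (0.45, 0.069) or of Mpc1-KO library 1 (0.083), 2 (0.070) or 3 (0.082). Soat1 stood at 14.3, 14.7 and 15.4 CPM in Mpc1-KO libraries, under the 22.1, 21.4 and 20.2 CPM of vehicle libraries (-0.50 ± 0.10, adjusted p = 0.012). Soat1 missed it after removal of vehicle library 2 (adjusted p = 0.057) or of Mpc1-KO library 1 (0.069), 2 (0.052) or 3 (0.0503). In the isoprenoid branch Ggps1, Dhdds and Nus1 had log2 fold changes of 0.16, 0.083 and 0.0026 and did not pass.

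Mpc1-KO against UK5099 compares the deletion and drug groups directly. No vehicle library is in the difference, though vehicle libraries add to the spread estimated over all libraries. The groups also differ in virus, with Cre and RFP in Mpc1-KO and RFP alone in UK5099. Over all tested genes 44.4% were called, 21.1% higher and 23.2% lower in Mpc1-KO. Of the 30 genes 22 were lower and 1 was higher, with a median of -0.59 beside -0.05 over all tested genes. Lower in Mpc1-KO were 18 of the 19 enzymes, with 7 of 7 at the mevalonate steps (median -0.92), 3 of 3 at the squalene steps (-0.71) and 8 of 9 at the sterol steps (-0.71). Hsd17b7 differed most, at 15.6 ± 1.57 CPM in Mpc1-KO and 80.9 ± 20.51 CPM with UK5099, a log2 difference of -2.31 ± 0.18 (limma adjusted p = 1.2e-05). Next came Mvk (-1.32 ± 0.16) and Hmgcs1 (-1.03 ± 0.11). Lbr did not differ by the test (0.08, interval -0.16 to 0.32).

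Scap was the only gene of the 30 that passed in opposite directions against vehicle, though both of those calls were lost under some alternatives. The difference itself passed, at -0.67 ± 0.08 in Mpc1-KO against UK5099 (limma adjusted p = 1.9e-04). Its 3 Mpc1-KO values (78.8 to 81.5 CPM) lay under its 3 UK5099 values (118 to 149 CPM). Insig1 was lower in Mpc1-KO (-0.45 ± 0.08, adjusted p = 0.0016). Insig2 was higher (0.22 ± 0.08, adjusted p = 0.048), and this call was lost under most alternatives, including the removal of every library except UK5099 library 3. Without UK5099 library 1 the difference for Insig2 was 0.12 (adjusted p = 0.065). Stard4 and Soat1 were lower in Mpc1-KO, with log2 differences of -0.29 (adjusted p = 0.034) and -0.42 (0.0057). The Stard4 call was lost after both rescalings, with no filter (0.067), in the 6 libraries alone (0.063), with no trend (0.057), and without UK5099 library 2 (-0.18, adjusted p = 0.089) or 3 (0.054), vehicle library 3 (0.051) or Mpc1-KO library 1 (0.085), 2 (0.084) or 3 (0.086).

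Dhcr7 was also lower in Mpc1-KO than with UK5099 (-0.43, limma adjusted p = 0.030). That call was lost with no filter (0.059), without UK5099 library 2 (-0.31, adjusted p = 0.10) and without Mpc1-KO library 2 (-0.38, 0.10) or 3 (-0.41, 0.093). Srebf2 (-0.08, interval -0.20 to 0.04), Mbtps1 (-0.08, interval -0.33 to 0.17) and Mbtps2 (-0.28, interval -0.58 to 0.02) did not pass. Srebf2 passed as lower without UK5099 library 1 (-0.12, adjusted p = 0.043), and Mbtps2 without UK5099 library 3 (-0.39, 0.039). Ggps1, Dhdds and Nus1 lay between -0.07 and 0.01 with overlapping libraries.

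Genes that work next to the pathway moved less evenly. Of 16 tested partners of sterol sensing and export (19 listed), 2 rose and 6 fell with UK5099 by limma, beside 19.9% of all tested genes called higher and 18.2% called lower. Erlin1, a membrane protein that helps restrain SREBP2, rose to 33.9, 33.3 and 30.4 CPM in UK5099 libraries, against 18.5, 20.4 and 17.8 CPM in vehicle libraries (0.77, adjusted p = 7.4e-05). Npc1 and Npc2, which move cholesterol out of the lysosome, fell by 0.57 and by 0.47 on the log2 scale. Nr1h2, a nuclear receptor of oxysterols, fell by 0.28. In Mpc1-KO 1 of the 16 rose and 0 fell (3 higher and 3 lower at an unadjusted p below 0.05), where 5.64% of all tested genes were called higher and 5.03% lower.

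Of 15 users of isoprenoids, 3 rose with UK5099 and 0 fell, also at an unadjusted p below 0.05, and this share of higher genes was close to the 19.9% of all tested genes. They were Rabggta, a subunit of the transferase that prenylates Rab proteins (0.37, limma adjusted p = 8.5e-04), Dolpp1 of dolichol recycling (0.48, 0.020) and Fnta, a subunit of protein farnesyltransferase (0.18, 0.041). In Mpc1-KO 2 of the 15 rose and 0 fell (3 and 2 at an unadjusted p below 0.05), beside 5.64% and 5.03% of all tested genes. Among 4 tested oxysterol enzymes (6 listed), Ch25h, which makes an oxysterol that INSIG binds, stood at 5.37, 10.9 and 12.4 CPM in UK5099 libraries, at 6.27, 4.89 and 5.19 CPM in Mpc1-KO libraries and at 2.22, 2.48 and 2.17 CPM in vehicle libraries. It rose in both comparisons with vehicle (1.77, adjusted p = 4.6e-04, and 1.09, adjusted p = 0.027). Cyp7b1, which degrades oxysterols, rose with UK5099 (0.57, adjusted p = 0.024). Cyp27a1 (-0.26) and Cyp39a1 (-0.27) did not pass with UK5099. Of the 4, then, 2 rose and 0 fell with UK5099, beside 19.9% and 18.2% of all tested genes. In Mpc1-KO 1 rose and 0 fell, beside 5.64% and 5.03%.

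Fatty acid synthesis shares its acetyl-CoA with cholesterol synthesis. Of 10 tested genes 5 rose and 1 fell with UK5099, beside 19.9% and 18.2% of all tested genes. Acly, which makes cytosolic acetyl-CoA from citrate, rose to 545, 578 and 451 CPM in UK5099 libraries, against 360.1, 289.8 and 303 CPM in vehicle libraries (0.72, limma adjusted p = 4.2e-04). Acaca (0.61) and Fasn (0.52), the carboxylase and the synthase, rose too, while the desaturase Fads1 fell (-0.29, adjusted p = 0.0014). In Mpc1-KO 1 of the 10 rose, Fads1 (0.18, adjusted p = 0.047), and 0 fell (2 and 1 at an unadjusted p below 0.05), against 5.64% and 5.03% of all tested genes.

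Other transcripts moved with UK5099 in the same libraries. Of 12 proliferation genes 11 rose, and their sum was 576 to 770.5 CPM in UK5099 libraries, 704 to 722 CPM in Mpc1-KO libraries and 349 to 457 CPM in vehicle libraries. In Mpc1-KO 9 of the 12 rose, beside 5.64% of all tested genes called higher (19.9% with UK5099). All 7 tested squamous markers (8 listed) rose with UK5099 and 2 in Mpc1-KO, with sums of 3532 to 5002 CPM in UK5099, 1116 to 1309.9 CPM in Mpc1-KO and 805 to 989.9 CPM in vehicle libraries. Among them Krt13, a keratin of stratified mucosa, stood at 361 to 636 CPM in UK5099 libraries, at 16.4 to 26.7 CPM in Mpc1-KO libraries and at 8.10 to 13.6 CPM in vehicle libraries. With UK5099, where 18.2% of all tested genes were called lower, 6 of 8 basal markers rose and 1 fell, and 3 of 8 luminal markers rose and 4 fell. In Mpc1-KO 1 basal marker rose and 1 fell, and 0 luminal markers passed (1 higher and 1 lower at an unadjusted p below 0.05). The 5 tested mesenchymal markers (8 listed) all fell with UK5099 and 3 fell in Mpc1-KO, with sums of 268 to 603 CPM in UK5099, 2727 to 3596 CPM in Mpc1-KO and 6755 to 7933 CPM in vehicle libraries, carried by Fn1. Col1a2 was at 0 in all 9 libraries. With UK5099 1 of 4 epithelial markers rose (Esrp1, 0.16) and 1 fell (Epcam, -0.93, limma adjusted p = 9.5e-06). In Mpc1-KO 0 of the 4 passed. Cd68, the 1 tested immune marker, fell with UK5099 (-1.15, adjusted p = 0.0078) and did not pass in Mpc1-KO (0.15). The part of these shifts in the enzyme result was not tested.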

How the data were processed

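RNA was measured in 9 libraries (3 groups of 3), made with a stranded mRNA kit and read as single ends. The authors' processing notes name STAR 2.7.9a, Partek and GRCm39, and the deposited values are CPM per gene with 0.0001 added, which was subtracted here. The treatment of reads shared between genes was not stated. The table holds no counts, so depth (16.5 M to 28.7 M reads) was estimated from the steps of low values, and 3 reads correspond to 0.104 to 0.182 CPM. Among its symbols 24 were turned into dates and were left as they are.

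Groups were taken from the sample labels. All 9 libraries were fitted together with limma 3.58.1 in R 4.3.3 (eBayes with trend) on log2(CPM + 0.5), keeping genes whose mean was 1 CPM or more, with Benjamini-Hochberg adjusted p-values over all 12396 tested genes, called below 0.05. Fold changes are on that log2(CPM + 0.5) scale, which understates changes of low genes. Intervals cover 95% and come from the same fit. Python 3.11.15 and matplotlib 3.10.9 were used for sums, motifs and plots. The code was tested on simulated data. Exon lengths are unions from GENCODE M21, and promoters are from RefSeq on GRCm38.p6.

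The members and lists were chosen with earlier results of these data known. Every member is named. Values in every library are given for the control genes, for the members with the largest and the smallest change of each role with UK5099, and for those that passed in Mpc1-KO against vehicle. Of each other list at most 4 genes are named, by smallest p in UK5099 against vehicle, beside Mpc1, defining markers at 0, and the genes behind a sum or a count. Dhcr7 and Ggps1 were given by library for their place near the threshold, after their values were seen.

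The replicate numbers in the labels are shared by the groups. Same-numbered libraries correlated in their deviations from group means at 0.44, 0.14 and 0.31 for UK5099 and vehicle. The values were -0.04, -0.02 and 0.09 for Mpc1-KO and vehicle, and -0.12, -0.08 and 0.12 for Mpc1-KO and UK5099. Unlike-numbered libraries of UK5099 and vehicle ranged from -0.43 to 0.26, with 0.26 for UK5099 library 3 and vehicle library 2. Mpc1-KO library 2 and UK5099 library 1 reached 0.16. These values do not settle whether the numbers pair libraries. The fits have no block, and the block is among the alternatives. Alternatives were pseudocounts of 0.1 and 2 CPM, no filter or a mean of at least 5 CPM, median-of-ratios and TMM rescaling, the 6 libraries of a comparison alone, a replicate block, no trend, and each library left out in turn.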

Additional observations from a re-analysis of the deposited data

Results flagged for a closer look

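Scap differed between drug and deletion. It passed as higher with UK5099 and as lower in Mpc1-KO, each against the same vehicle libraries, and the difference between Mpc1-KO and UK5099 passed a test of its own (limma, log2 difference -0.67, adjusted p = 1.9e-04), with all 3 Mpc1-KO libraries under all 3 UK5099 libraries. The difference was -0.74 to -0.57 when any library was left out and passed each time. The calls against vehicle were less stable. With UK5099 the Scap call was lost in 5 of the 18 alternatives, and in Mpc1-KO in 5 of the 18.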

How the results depend on the processing

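With UK5099 against vehicle, 22 of the 30 genes passed, and 19 to 23 did under the 18 alternatives, with a median of 0.58 to 0.70. Of the 22 calls 19 held under every alternative in which the gene was tested, the others being Srebf2, Scap and Dhcr7. The count of lower genes was 0 to 1 over left-out libraries. In Mpc1-KO against vehicle none of the 3 calls held under all. With only the 6 libraries 8 passed (4 higher, 4 lower), and over left-out libraries 0 to 7 (0 to 3 higher, 0 to 4 lower), with 2 higher after median-of-ratios and 2 after TMM rescaling. Over all tested genes, 699 were higher and 624 lower in that comparison, against 2164 and 2235 with only the 6 libraries, 382 and 379 with no filter, and 152 to 1743 and 155 to 1850 over left-out libraries. In Mpc1-KO against UK5099, 20 to 23 passed. The 1 higher gene, Insig2, became 0 with no filter, after both rescalings, with 6 libraries, with the replicate block and without trend, and was 0 to 1 over left-out libraries. With the replicate block 22 genes passed for UK5099 against vehicle, 4 for Mpc1-KO against vehicle (Hsd17b7 added, adjusted p = 0.042) and 22 for Mpc1-KO against UK5099 (without Insig2, 0.057). In no other case did the block change a call.

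No gene that passed changed sign. Signs turned for some that did not pass, after median-of-ratios and TMM rescaling for Insig2 (-0.0015 and -0.0023) and Nus1 (-0.017 and -0.018) in UK5099 against vehicle, Mvd (0.0054 and 0.0026) in Mpc1-KO against vehicle and Nus1 (0.029 and 0.027) in Mpc1-KO against UK5099, and after median-of-ratios for Insig1 (0.00049) in Mpc1-KO against vehicle. Left-out libraries turned signs in UK5099 against vehicle for Insig2 (-0.039 to 0.13), Mbtps1 (-0.26 to 0.0040) and Nus1 (-0.010 to 0.042). They did so in Mpc1-KO against vehicle for Fdft1 (-0.16 to 0.0053), Fdps (-0.042 to 0.099), Hmgcs1 (-0.15 to 0.050), Idi1 (-0.15 to 0.13), Insig1 (-0.055 to 0.064), Mvd (-0.057 to 0.051), Nsdhl (-0.0057 to 0.080), Nus1 (-0.026 to 0.021) and Tm7sf2 (-0.13 to 0.026). In Mpc1-KO against UK5099 they did so for Dhdds (-0.12 to 0.0011), Ggps1 (-0.027 to 0.032), Lbr (-0.042 to 0.17), Mbtps1 (-0.19 to 0.074) and Nus1 (-0.043 to 0.013). The causes of these shifts were not tested.

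The edgeR and DESeq2 alternatives were not run. The deposited values are CPM with a constant added, and reads recovered from them were used only for depth. After removal of the constant 99.9% to 99.94% of values worth up to 1000 reads were whole to a tolerance of 0.02. With 3 libraries a group, small changes in thinly covered genes such as Idi1 are measured least precisely. UK5099 libraries were spread more than the others, and the shared estimate of spread carries this into Mpc1-KO against vehicle.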
